A study of Mus musculus with 6 samples.

Results

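The cells described here are the monocyte lineage of mouse bone marrow that carries little or no MHC class II RNA. A barcode was taken as a member when it held at least 2 unique molecular identifiers (UMIs) of Csf1r, the receptor for macrophage colony-stimulating factor, and at least 2 UMIs in all of Ms4a6c, F13a1 and Ccr2. It also had to hold at most 2 UMIs of the class II genes H2-Aa, H2-Ab1 and H2-Eb1 together, at most 1 of Siglech, fewer than 50 of S100a8 and S100a9, and 0 of Cd79a. These limits were chosen on measured values, so the level of the rule's own genes is a description. Fits over all genes included them, but no result is drawn from their p-values. The limits found 910 cells among the 44399 barcodes with at least 500 genes, at least 1000 UMIs and at most 10% mitochondrially encoded UMIs, out of 48277 deposited.

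Bone marrow was taken from wild-type (WT) mice and from mice labelled Txnip knock-out (Txnip-KO), with 3 samples of each. The sources used here do not give strain, age or sex, nor which part of the gene was deleted. Cells were enriched and sorted by flow cytometry before single-cell 3' RNA sequencing, and the sorted population is not named, so every share below is a share of that sorted population. Nothing in the labels says that replicates are different mice, so that a p-value speaks to the spread among 6 samples and part of that spread may be technical. No member barcode was shared between libraries, and 7 to 21 passing barcodes were shared per pair of libraries.

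Monocytes arise in the marrow from granulocyte-monocyte progenitors and from monocyte-dendritic progenitors, and the receptor encoded by Csf1r carries the signal that keeps the lineage alive. Classical monocytes carry Ly6C and the chemokine receptor CCR2 and leave the marrow for inflamed tissue. Some of them convert to patrolling monocytes, which lose Ly6C, depend on the nuclear receptor NR4A1 and stay on the wall of blood vessels. The product of Txnip is an arrestin relative that holds thioredoxin and lowers the uptake of glucose. Its transcription is driven by the glucose-sensing factor MondoA.

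All 12 genes of a monocyte marker list stood higher in the members than in the other cells of the same samples, which the rule makes likely for those it used. The summed level of the list was 8285 to 9202 CPM (UMIs scaled to the same library total) in WT members and 4789 to 15301 in Txnip-KO members, against means of 1221 and 1141 in the other cells. Of genes that the rule did not use, Lyz2 (lysozyme) stood at a mean of 5226 CPM against 400.4 in other cells, Fn1 (fibronectin) at 573 against 27.5, Ly6c2 at 693 against 82.1 and Irf8, a transcription factor needed for monocytes, at 614 against 333. These values describe a class cut from the same counts and carry no test. Of 7 granulocyte-monocyte progenitor genes, 6 also stood higher in the members than in the other cells, with Mpo (myeloperoxidase) at 1467 against 398.6 CPM. The class thus holds cells with progenitor genes as well as cells with monocyte genes. The 6 T cell genes summed to at most 8.20 CPM in a sample, and Pax5, Xcr1, Mertk, Col3a1 and Lepr, single genes of B cell, dendritic, macrophage and stromal lists, had 0 UMIs. Xcr1, Mertk and Col3a1 were near 0 in the other cells as well (0.19, 0.034 and 0.115 CPM), so their absence says little. Other lists were not absent. The macrophage list summed to means of 22.1 CPM in WT and 22.1 in Txnip-KO members, against 4.34 and 10.5 in the other cells. Its gene Adgre1 stood at 20.2 CPM in the members against 1.61. The stem and multipotent progenitor list summed to means of 425 CPM in WT and 668 in Txnip-KO members and the plasmacytoid dendritic list to 375 and 426. Cd34 (286 against 237 CPM), Flt3 (127 against 111), Cd209a (51.98 against 22.0) and Batf3 (4.68 against 3.23) stood higher in the members than in the other cells.

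Members made up a smaller share of Txnip-KO marrow in all 3 samples. They were 238 of 6569, 222 of 7509 and 184 of 7269 passing barcodes in WT 1, 2 and 3, against 99 of 6379, 77 of 8439 and 90 of 8234 in Txnip-KO 1, 2 and 3. The shares were 3.62%, 2.96% and 2.53% in WT and 1.55%, 0.912% and 1.09% in Txnip-KO. The lowest WT sample lay above the highest Txnip-KO sample, and the exact 95% binomial intervals, which cover counting error only, ran from 2.18% to 2.92% in WT 3 and from 1.26% to 1.89% in Txnip-KO 1. The means were 3.04% ± 0.550 and 1.19% ± 0.330 (SD, n = 3 each). A two-sided exact permutation test gave p = 0.1, the smallest that 3 samples against 3 can give, so this design cannot reach 0.05. A share among sorted cells cannot tell fewer members from more of the other cells. Passing Txnip-KO cells held fewer UMIs, with sample medians of 7211 to 8462 against 9265 to 9552 in WT. With every cell thinned to 3000 UMIs before the rule was applied, the shares were 0.618% ± 0.355 and 0.125% ± 0.0634, again without overlap. That thinning left out 787 to 930 WT and 788 to 1411 Txnip-KO barcodes per sample.

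The rule's edges hold many cells. Csf1r stood at exactly 2 UMIs in 107, 117 and 83 WT members and in 51, 44 and 57 Txnip-KO members. Just outside, 142, 197 and 158 WT barcodes and 97, 99 and 101 Txnip-KO barcodes met every other condition with 1 Csf1r UMI. Just past the class II limit, 2 to 4 barcodes per sample held exactly 3 class II UMIs. A class of 221 cells that met the other limits with more than 2 class II UMIs made up 0.526% ± 0.137 of WT and 0.479% ± 0.151 of Txnip-KO barcodes, and these groups overlapped (exact permutation p = 0.8, n = 3 each). Mpo-high progenitors (at least 10 Mpo UMIs and at most 1 of Csf1r) made up 9.67% ± 0.786 of WT and 7.37% ± 1.23 of Txnip-KO barcodes, without overlap (exact permutation p = 0.1, n = 3 each). Whether these classes differ in how their shares moved was not tested.

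**Figure D1:**
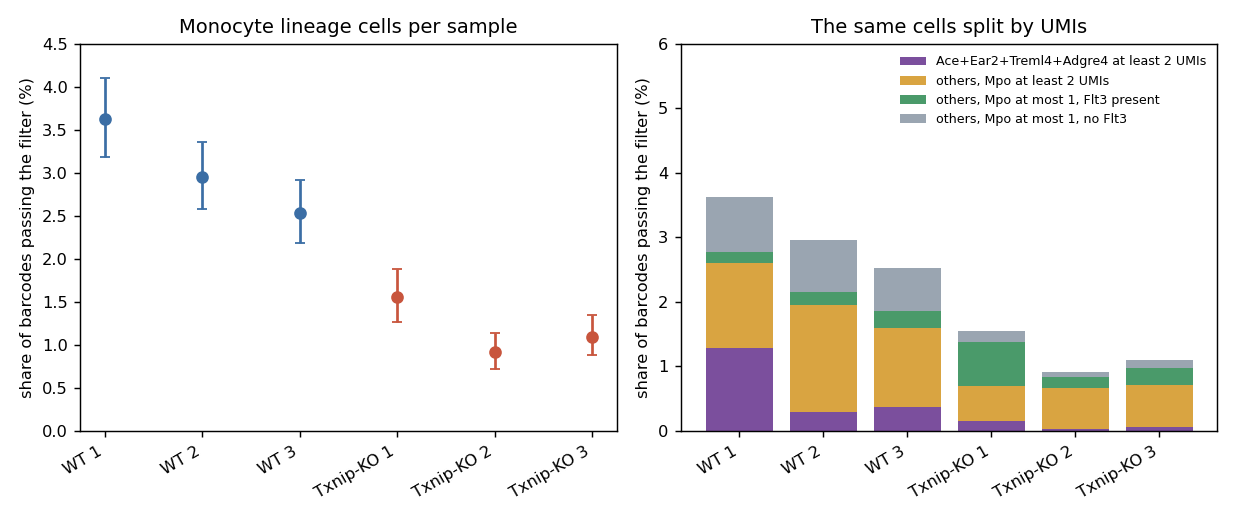
Left, share of barcodes passing the filter that met the rule (y axis, percent, with exact 95% binomial intervals) in each sample (x axis). Right, the same shares split into 4 sets of members by UMIs, as stacked bars. The 3 WT samples lie between 2.53% and 3.62% and the 3 Txnip-KO samples between 0.912% and 1.55%, and WT 1 has the tallest bar of cells with Ace, Ear2, Treml4 or Adgre4.

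The members were then split into 4 sets by their UMIs. The sets were chosen after an exploratory clustering of these same cells had been seen, so their sizes are given without a test. A first set held at least 2 UMIs of Ace, Ear2, Treml4 and Adgre4 together, genes known from patrolling monocytes. It had 84, 22 and 27 cells in the WT samples against 10, 2 and 5 in the Txnip-KO samples, or 35.3%, 9.91% and 14.7% of WT members and 10.1%, 2.60% and 5.56% of Txnip-KO members. The range of WT overlapped that of Txnip-KO, and WT 1 alone held most of these cells. They were shallow in WT, with median UMIs of 3596.5, 3839.5 and 4904 per cell, and not in Txnip-KO, with 10618.5, 11476 and 11836. Scored as doublets were 8, 3 and 7 of these WT cells and 2, 0 and 3 of the Txnip-KO cells.

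Levels within the first set were taken from counts pooled over the samples of a group, which gives no error. In WT, of genes that did not define the set, Nr4a1 stood at 237 CPM, Cx3cr1 (the fractalkine receptor) at 453 and Fcgr4 (an Fc receptor) at 287, and Fn1 at 368. Ly6c2 stood at 371, close to the 370 of cells with at least 2 Mpo UMIs. The same WT cells also held genes known from neutrophil, basophil, lymphoid or dividing cells, with Mpo at 328 CPM, Prss34 at 328, Mcpt8 at 364, Mki67 at 244 and Dntt at 134. Ace (angiotensin-converting enzyme), which helped to define the set, stood at 386. In Txnip-KO the 17 cells of the set looked different, with Ace at 24.7 CPM, Nr4a1 at 39.5, Fcgr4 at 49.3, Ly6c2 at 1687 and Fn1 at 3314. Those last levels lie nearer to the WT members outside the set with at most 1 Mpo UMI and no Flt3 UMI (Ly6c2 at 2292 and Fn1 at 1554 CPM) than to the WT cells of the first set. Among all passing barcodes, members or not, 184, 59 and 49 WT and 42, 9 and 15 Txnip-KO barcodes held at least 2 UMIs of the 4 genes. Without the first set, members made up 2.42% ± 0.255 of WT and 1.11% ± 0.266 of Txnip-KO barcodes (SD, n = 3 each), and the groups still did not overlap.

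The remaining members were split by Mpo and by Flt3, the receptor for FLT3 ligand, which marks multipotent and monocyte-dendritic progenitors. Cells with at least 2 Mpo UMIs were 36.6%, 55.9% and 48.4% of WT members and 34.3%, 70.1% and 58.9% of Txnip-KO members, and the groups overlapped. Cells with at most 1 Mpo UMI and a Flt3 UMI were 4.62%, 7.21% and 10.3% of WT members and 44.4%, 19.5% and 24.4% of Txnip-KO members. Cells with at most 1 Mpo UMI and no Flt3 UMI were 23.5%, 27.0% and 26.6% of WT members and 11.1%, 7.79% and 11.1% of Txnip-KO members. The groups did not overlap in these last 2 sets. The Flt3 set was 11, 16 and 19 cells in WT and 44, 15 and 22 in Txnip-KO, and these counts of cells overlapped between the groups. A doublet score marked 2, 6 and 1 of these WT cells and 7, 7 and 3 of the Txnip-KO cells. Among all members it marked 27, 28 and 23 in WT and 15, 12 and 14 in Txnip-KO. Marked cells were kept, and their part in the levels of this set was not tested. Cells of the Flt3 set carried Cd209a, a lectin known from monocyte-derived dendritic cells, at 263 CPM in WT and 219 in Txnip-KO. Cells with at most 1 Mpo UMI and no Flt3 UMI carried Cd209a at 82.0 and 222 CPM, so in Txnip-KO it did not set the Flt3 set apart.

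Flt3 itself was higher in Txnip-KO members by both measures used. Its level was 61.1, 75.8 and 82.6 CPM in WT and 212, 158 and 173 in Txnip-KO, with CPM here and below scaled by the TMM method. No Txnip-KO sample overlapped a WT sample, and the log2 fold change of Txnip-KO over WT was 1.31 (SE 0.16; adjusted p = 0.0045 by the quasi-likelihood test of edgeR, adjusted over all genes tested after Benjamini and Hochberg). With each cell thinned to 3000 UMIs, 8.64%, 16.7% and 14.8% of WT members and 49.5%, 46.8% and 32.6% of Txnip-KO members held a Flt3 UMI (exact permutation p = 0.1, n = 3 each). Among barcodes marked as natural killer cells (at least 2 UMIs of Ncr1 and Klrb1c and 0 of Csf1r), which should lack Flt3, 1.51% to 2.11% in WT and 3.42% to 4.67% in Txnip-KO held one at the same thinning, with median depths of 4368 to 5107 and 3265.5 to 4320.5 UMIs against 11920 to 16031.5 and 12781 to 14327 in the members. As deposited, 41.0% of WT and 82.0% of Txnip-KO members held a Flt3 UMI on average.

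Among the other markers counted this way, Mki67, a gene of dividing cells, was found in 34.5%, 38.4% and 38.3% of WT and in 13.1%, 27.3% and 27.0% of Txnip-KO members. Elane (neutrophil elastase) was found in 19.1%, 20.4% and 18.6% against 4.04%, 15.6% and 13.5%. Nr4a1 was found in 21.4%, 5.09% and 6.56% against 3.03%, 3.90% and 2.25%. Natural killer-marked barcodes held these genes in 3.21% to 7.36%, 0.360% to 0.889% and 0.389% to 2.13%. In all 3 the groups did not overlap, at the exact permutation p of 0.1 that is the smallest possible, and for Nr4a1 the height of the WT mean rests on WT 1. Kit, Mpo, Ly6c2 and Cx3cr1 overlapped between the groups, with exact permutation p from 0.2 to 0.8. Ccr2 and S100a8 overlapped as well. The rule used both, so their detection is a description and no p-value is given for them. These 10 markers were the planned ones. Further genes were counted and tested in the same way, and their p-values are not given here. With 0.1 as the smallest p, no adjusted value can be below it.

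**Figure D2:**
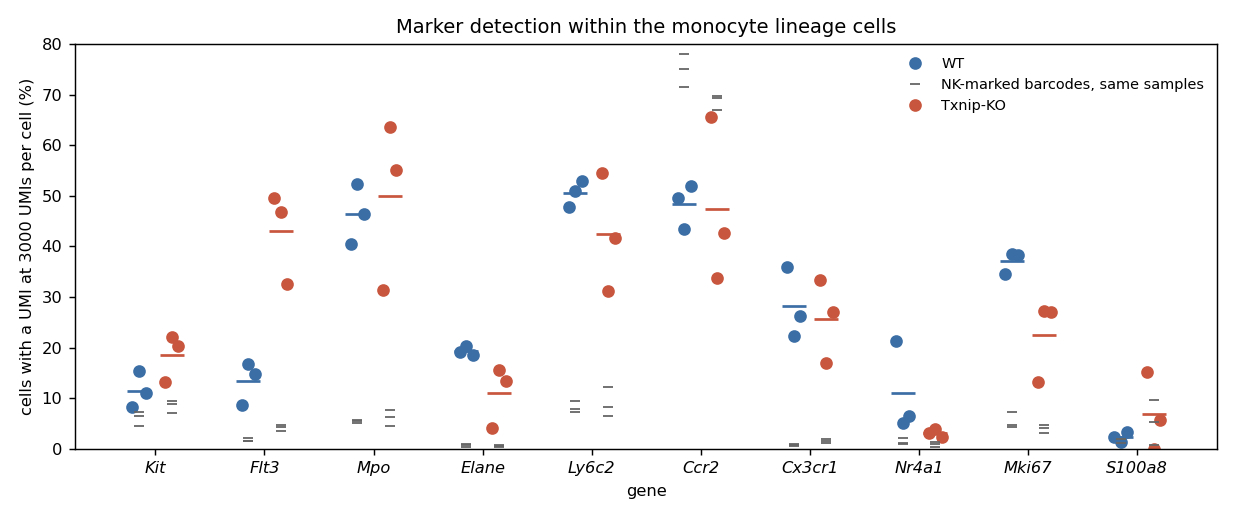
Share of members with at least 1 UMI of a gene after thinning each cell to 3000 UMIs (y axis, percent) for 10 markers (x axis). Points are samples, short lines are group means and grey dashes are natural killer-marked barcodes of the same samples. Flt3 lies between 32.6% and 49.5% in Txnip-KO and between 8.64% and 16.7% in WT.

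The genotype was then compared gene by gene on UMI counts summed over the members of each sample. Txnip, the gene labelled as deleted, stood at 143, 96.2 and 134 CPM in WT members and at 5.64, 5.49 and 0 in Txnip-KO members, which are 457, 367 and 380 UMIs against 8, 7 and 0. The groups lie far apart, and the difference was -5.05 in log2 units (SE 0.41; edgeR adjusted p = 0.000459). The counts come from the 3' end of transcripts, and whether that end lies inside the deleted part is not given.

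Of 9568 genes tested, 412 passed the threshold of 0.05 (4.31%), 272 of them higher (2.84%) and 140 lower (1.46%) in Txnip-KO. The median log2 fold change of all genes tested was 0.03. Samples did not overlap between the groups in 2870 genes (30%). The number of calls rests on every WT sample: it was 43 without WT 1, 42 without WT 2 and 24 without WT 3, against 629 without Txnip-KO 1 and 138 without Txnip-KO 3. It also moves with the first set of cells above. With those cells left out, an alternative chosen after seeing the data, 1088 of 9354 genes were called (11.6%), 612 higher (6.54%) and 476 lower (5.09%), and 396 of the 412 genes were among them. The first set made up 19.96% ± 13.5 of WT and 6.08% ± 3.78 of Txnip-KO members (SD, n = 3), and its part in a gene result below was not tested except where a value without it is given.

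The 12 largest rises among called genes, taken where the mean was 10 CPM or more and the groups did not overlap, were Sult1a1, Ddit4, Lifr, Mrc1, Hlf, Hmga2, Arrdc4, Snx21, Acot1, Polr3gl, H2ac6 and Cd209d. Sult1a1, a sulfotransferase, stood at 2.82, 1.83 and 2.47 CPM in WT and at 66.2, 25.1 and 34.2 in Txnip-KO, or 4.14 in log2 units (SE 0.41; adjusted p = 0.00116, edgeR). Ddit4, which restrains mTORC1, stood at 3.76, 3.93 and 8.11 against 83.1, 47.9 and 24.0 CPM (3.32, SE 0.44; adjusted p = 0.00614, edgeR). Both genes are low in every WT sample and higher in every Txnip-KO sample. Outside the members Ddit4 stood at 14.6 CPM in WT and 47.8 in Txnip-KO and Sult1a1 at 1.15 and 10.6, and natural killer-marked barcodes held Ddit4 at 22.5 and 59.8, against 51.7 in Txnip-KO members. Arrdc4, the closest relative of Txnip among the arrestins, stood at 12.5, 10.7 and 15.9 CPM against 53.5, 49.4 and 58.1 (2.05, SE 0.19; adjusted p = 0.00097, edgeR). Acot1, an acyl-CoA thioesterase, stood at 11.9, 13.9 and 9.17 against 38.7, 37.7 and 53.0 CPM (1.87, SE 0.22; adjusted p = 0.00379, edgeR). These 2 genes varied little within a group. Outside the members Arrdc4 stood at 9.59 CPM in WT and 48.0 in Txnip-KO and Acot1 at 11.2 and 51.2.

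Hmga2, a chromatin protein of fetal and early progenitors, stood at 8.78, 10.2 and 7.06 CPM in WT and at 36.6, 32.9 and 42.1 in Txnip-KO (2.08, SE 0.21; adjusted p = 0.00126, edgeR). Hlf, a transcription factor of blood stem cells, stood at 5.33, 7.86 and 6.70 against 39.4, 29.8 and 21.8 CPM (2.18, SE 0.27; adjusted p = 0.00464, edgeR). Natural killer-marked barcodes held Hlf at 11.96 CPM in WT and 37.2 in Txnip-KO, and all other cells held it at 76.7 and 150.5. In Txnip-KO its pooled level was 32.4 CPM in cells with at least 2 Mpo UMIs and 39.5 in the Flt3 set, against 3.64 in cells with at most 1 Mpo UMI and no Flt3 UMI and 0 in the first set. Whether free RNA adds to these values was not tested. Hmga2 was 4.77 CPM in WT and 10.05 in Txnip-KO natural killer-marked barcodes, in each case below its level in members of the same genotype. All other cells held Hmga2 at 22.3 CPM in WT and 34.9 in Txnip-KO.

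Mrc1 (the mannose receptor) stood at 6.27, 2.88 and 2.47 against 24.7, 11.8 and 20.3 CPM, and Cd209d, a C-type lectin, at 3.45, 7.08 and 9.53 against 37.3, 10.2 and 22.5. Lifr, the receptor for leukemia inhibitory factor, stood at 3.76, 3.67 and 5.64 against 50.012, 7.84 and 13.1, and Snx21, a sorting nexin, at 6.58, 5.50 and 9.88 against 42.3, 16.5 and 24.0. In all 4, Txnip-KO 1 is the highest sample, and it is also the sample with the largest Flt3 set. Pooled levels within that set were 12.5 CPM in WT and 51.7 in Txnip-KO for Mrc1, 17.9 and 45.6 for Lifr, 26.8 and 81.1 for Snx21, and 59.0 and 82.1 for Cd209d. In cells with at least 2 Mpo UMIs they were 1.21 and 2.70 for Mrc1, 2.12 and 8.11 for Lifr, 1.21 and 4.25 for Snx21, and 1.06 and 0 for Cd209d. In cells with at most 1 Mpo UMI and no Flt3 UMI they were 10.9 and 50.9 for Mrc1, 5.47 and 72.7 for Lifr, 14.4 and 80.004 for Snx21, and 12.4 and 43.6 for Cd209d. The pooled levels of all 4 were thus higher in Txnip-KO within both of these sets of low Mpo, and the part that set sizes have in the 4 rises was not tested. H2ac6, a histone H2A gene, stood at 10.7, 10.2 and 11.6 CPM against 26.1, 26.7 and 62.5.

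**Figure D3:**
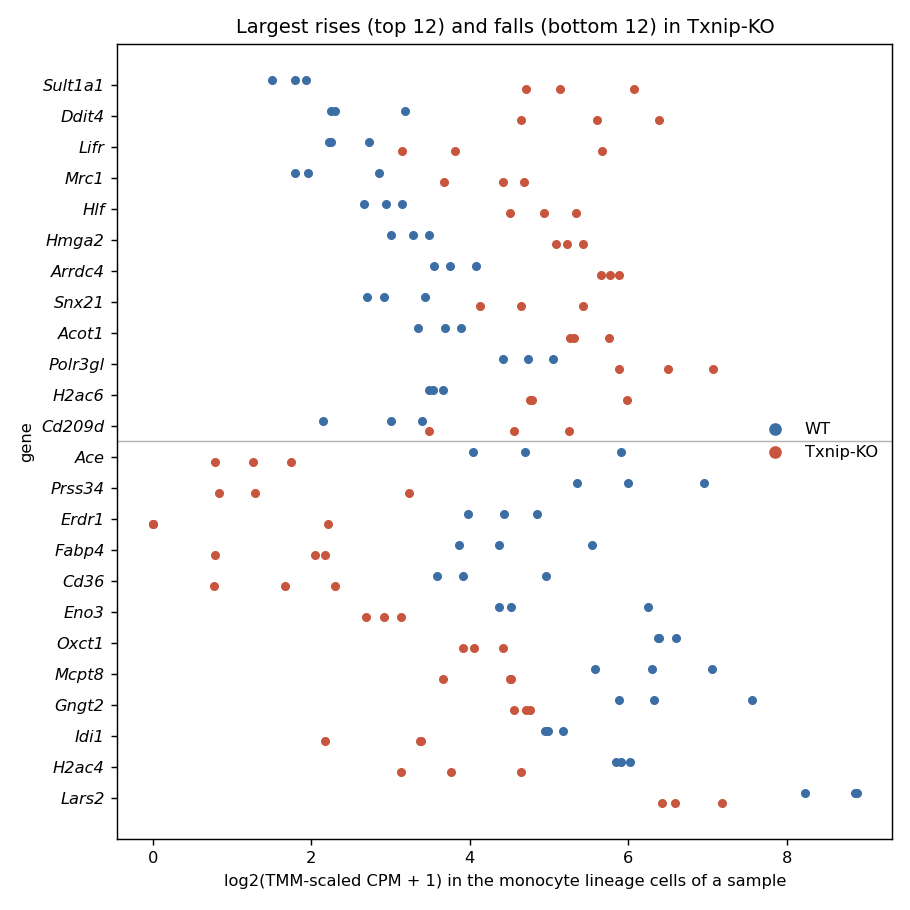
Level of the 12 largest rises (top) and 12 largest falls (bottom) in the members of each sample, as log2 of TMM-scaled CPM plus 1 (x axis) for each gene (y axis). Each point is a sample. By the rule that chose these genes no WT point overlaps a Txnip-KO point, and Arrdc4 and Oxct1 have the most tightly grouped samples.

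The 12 largest falls apart from Txnip were Ace, Prss34, Erdr1, Fabp4, Cd36, Eno3, Oxct1, Mcpt8, Gngt2, Idi1, H2ac4 and Lars2. Of these, 5 sat in the first set of cells in WT, where they were far above their level in the other members. Ace stood at 59.2, 15.5 and 25.0 CPM in WT and at 1.41, 2.35 and 0.727 in Txnip-KO, or -4.44 in log2 units (SE 0.76; adjusted p = 0.0168, edgeR). Fabp4, a fatty acid carrier, stood at 45.8, 13.6 and 19.8 against 3.52, 3.14 and 0.727 CPM (-3.39, SE 0.65). Cd36, a scavenger receptor, stood at 30.1, 11.01 and 14.1 against 0.704, 3.92 and 2.18 CPM (-3.02, SE 0.60). Gngt2, a G protein subunit, stood at 188, 57.9 and 79.0 against 22.5, 25.1 and 26.2 CPM (-2.14, SE 0.42), and Eno3, an enolase, at 75.2, 22.0 and 19.8 against 7.75, 5.49 and 6.54 CPM (-2.55, SE 0.62). WT 1, with the most such cells, is the highest sample for all 5. Without the first set, Gngt2 and Eno3 had log2 fold changes of 0.34 and 0.14 (adjusted p = 0.397 and 0.858, edgeR), and Ace, Fabp4 and Cd36 were too low to be tested. None of the 5 was called without WT 3 or without Txnip-KO 3, and over all 6 left-out samples their highest adjusted p in edgeR lay between 0.0678 for Ace and 0.122 for Eno3. In bulk sums such as these, fewer cells of a kind and less RNA per cell cannot be told apart.

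The 250 bases before the start of Ace (chromosome 11, 105967945 to 105989964, plus strand) and Treml4 (chromosome 17, 48264295 to 48275360, plus strand), 2 of the 4 genes that set these cells apart, are shown because those genes move together. They come from RefSeq on GRCm38.p6, written 5' to 3', with capitals on each GAGGAA of either strand, the core letters bound by the myeloid factor PU.1.
Ace chr11:105967698-105967947: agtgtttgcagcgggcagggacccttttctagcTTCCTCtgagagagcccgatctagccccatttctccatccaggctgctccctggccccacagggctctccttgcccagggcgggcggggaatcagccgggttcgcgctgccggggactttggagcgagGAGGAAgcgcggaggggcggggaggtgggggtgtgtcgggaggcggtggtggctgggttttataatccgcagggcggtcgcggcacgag
Treml4 chr17:48264045-48264294: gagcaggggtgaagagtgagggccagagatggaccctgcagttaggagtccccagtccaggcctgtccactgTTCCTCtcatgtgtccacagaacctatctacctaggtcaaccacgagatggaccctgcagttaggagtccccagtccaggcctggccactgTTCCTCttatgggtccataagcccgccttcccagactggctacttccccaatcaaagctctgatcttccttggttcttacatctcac
Ace holds the letters 217 and 89 bases before the start shown and Treml4 178 and 87 bases before. A second Ace window of the same source (chromosome 11, 105974939 to 105975188), not printed here, holds none. The same letters are in 23.3% of the 32851 RefSeq windows of this length. Neither Ear2 nor Adgre4, the other genes of the set, holds them in this window.

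Treml4, a receptor for dead cells, stood at 32.3, 6.82 and 13.8 CPM in WT and at 0.704, 0 and 2.18 in Txnip-KO (-4.08, SE 0.91; adjusted p = 0.0359, edgeR). Ear2, a ribonuclease, stood at 84.0, 27.3 and 26.5 against 22.5, 7.06 and 10.2 CPM (adjusted p = 0.0832, edgeR), and Adgre4, an adhesion receptor, at 69.3, 13.4 and 18.7 against 7.75, 0.784 and 2.91 (adjusted p = 0.0581, edgeR). The groups did not overlap in these 2 genes either, but neither passed the threshold. Since these genes define the first set, their values describe it.

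Falls outside the first set were also found. Oxct1, the enzyme that starts the use of ketone bodies, stood at 82.7, 96.5 and 81.9 CPM in WT and at 14.1, 15.7 and 20.3 in Txnip-KO (-2.38, SE 0.18; adjusted p = 0.000459, edgeR), and every pooled set showed it, from 70.8 to 96.5 CPM in WT and from 4.93 to 21.8 in Txnip-KO. Lars2, a mitochondrial leucyl-tRNA synthetase, stood at 474, 299 and 464 against 144, 95.7 and 85.0 CPM (-1.92, SE 0.23; adjusted p = 0.00379, edgeR). H2ac4, a histone H2A gene, stood at 59.2, 56.6 and 63.9 against 7.75, 12.6 and 24.0 CPM (-2.02, SE 0.28), while H2ac6 rose. Both belong to a family of near-identical copies, so their counts are uncertain. Erdr1, whose copies near the end of the sex chromosomes make its counts uncertain, stood at 14.7, 20.7 and 27.9 against 0, 0 and 3.63 CPM, which are 47, 79 and 79 UMIs against 0, 0 and 5. Prss34 and Mcpt8, proteases of basophils, also fell, from 124, 62.9 and 39.9 to 8.45, 0.784 and 1.45 CPM and from 133, 77.8 and 46.9 to 21.8, 22.0 and 11.6. Natural killer-marked barcodes of the same samples held Prss34 at 127 CPM in WT and 34.3 in Txnip-KO and Mcpt8 at 107 and 21.2, and the other cells at 609.9 and 173 and at 552 and 92.7. The UMIs were not spread evenly: in WT 1 the 395 Prss34 UMIs lay in 26 of 238 members and the 424 Mcpt8 UMIs in 34. In WT the pooled levels ran from 328 and 364 CPM in the first set to 8.93 and 14.3 in the Flt3 set. Whether these molecules come from the members themselves was not tested.

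Of the 24 named rises and falls, 10 passed the threshold with each of the 6 samples left out in turn. They were the rises Sult1a1, Ddit4, Hlf, Hmga2, Arrdc4 and Acot1 and the falls Prss34, Oxct1, Idi1 and Lars2. Lifr and Cd209d passed only without Txnip-KO 2, with log2 fold changes from 1.28 to 2.85 and from 1.30 to 2.15 over the 6 fits.

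A list of genes linked to MondoA, with Txnip and its arrestin relatives, had more calls per gene tested than any other of 27 gene lists. Of 17 such genes tested, 7 rose (Arrdc4, Acot1, Ddit4, Polr3gl, Klf10, Pfkfb3 and Klf11) and 1, Txnip, fell, with a median log2 fold change of 0.71 against 0.03 for all genes. The list was drawn up with results of these data known, so its direction is not independent evidence. Whether MondoA acts on these genes in the members was not tested. Acot1 also counts in the list of fatty acid and ketone use below. For all genes tested, the share that rose was 2.84%. Klf10, a zinc finger factor, stood at 29.8, 18.9 and 26.1 CPM in WT and at 82.4, 44.7 and 56.7 in Txnip-KO (1.31, SE 0.24; adjusted p = 0.0212, edgeR). Polr3gl, a subunit of RNA polymerase III, stood at 20.4, 25.7 and 32.1 against 134, 89.4 and 58.1 CPM (1.85, SE 0.28; adjusted p = 0.0105, edgeR). Polr3gl lies 15988 bases from Txnip on the same chromosome. The list had 3 rises without WT 1 or WT 3, 4 without WT 2 or Txnip-KO 3, and 8 without the first set of cells. Arrdc3, another arrestin, stood at 23.5, 9.17 and 12.3 against 19.0, 17.3 and 17.4 CPM and did not pass in all members (adjusted p = 0.673, edgeR). Without the first set of cells, Arrdc3 was among the 8 genes called higher.

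The window before Arrdc4 (chromosome 7, 68736995 to 68749241, minus strand) and that before Polr3gl (chromosome 3, 96577872 to 96594181, minus strand) are printed because both genes rose together and both hold CACGTG, the E-box letters that MondoA and its partners can bind. The source and direction are as above, with the E-box in capitals.
Arrdc4 chr7:68749239-68749488: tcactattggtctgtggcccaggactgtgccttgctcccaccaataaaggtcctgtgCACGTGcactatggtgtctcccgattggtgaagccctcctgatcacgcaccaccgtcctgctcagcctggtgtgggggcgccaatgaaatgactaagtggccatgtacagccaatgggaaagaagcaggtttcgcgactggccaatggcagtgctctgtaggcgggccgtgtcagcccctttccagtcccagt
Polr3gl chr3:96594182-96594431: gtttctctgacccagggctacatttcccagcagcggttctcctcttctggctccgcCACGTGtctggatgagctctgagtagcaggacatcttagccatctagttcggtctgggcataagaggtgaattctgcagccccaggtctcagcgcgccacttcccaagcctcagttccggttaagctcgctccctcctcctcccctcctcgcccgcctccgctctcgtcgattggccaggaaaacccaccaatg
The E-box lies 193 bases before the start in Arrdc4 and 194 bases before it in Polr3gl, and 6.02% of all windows hold one. These windows were picked for their matches. In all, 8 motifs were searched on both strands in the windows of 31 genes, 27 of which are in the table. They were the E-box, the letters TCACNCCAC of a sterol response element and their shorter form CACNCCAC, which lies within the longer, the letters GAGGAA and their longer form GAGGAAGT, the site AAAGGTCA that NR4A1 can bind, the CCAAT box, and TGATGNAA, which ATF4 with a C/EBP partner can bind. CACGTG was in 2 of the 12 named rises, in 0 of the 9 named falls with a window, and in 4 of 6 called MondoA list genes with a window, where Pfkfb3 and Klf11 were the others. It was not in the window of Txnip itself. GAGGAA was in 3 of the 12 named rises and in 3 of those 9 falls, and CCAAT in 8 and 5. A match of letters is a description and shows no binding.

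Of 20 cholesterol synthesis genes tested, 5 fell, among them Fdps, Idi1, Ebp and Cyp51, and 0 rose. All 20 had a negative log2 fold change, and the median was -0.70 against 0.03 for all genes, of which 1.46% fell. Idi1, which makes an isoprenoid building block, stood at 35.1, 30.7 and 29.99 CPM in WT and at 3.52, 9.41 and 9.45 in Txnip-KO (-2.10, SE 0.28; adjusted p = 0.00614, edgeR). The other cells held Idi1 at 40.8 CPM in WT and 12.9 in Txnip-KO. Fdps, the next enzyme of the path, stood at 84.3, 99.9 and 99.5 against 24.7, 36.1 and 39.2 CPM (-1.51, SE 0.18; adjusted p = 0.00441, edgeR). The groups are clearly apart in both genes, and 2 of the list's genes were called without WT 1, WT 2 or Txnip-KO 3 and 3 to 5 without the others.

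Of 72 nuclear genes of oxidative phosphorylation, which makes ATP in the mitochondrion, 9 fell and 0 rose. The changes were small, with a median log2 fold change of -0.35, and 70 of the 72 were negative. Falls made up 1.46% of all genes tested. Ndufa9, a subunit of complex I, stood at 80.9, 84.4 and 82.2 CPM against 41.6, 52.6 and 42.9 (-0.86, SE 0.15; adjusted p = 0.0168, edgeR), and Cycs (cytochrome c) at 317, 352 and 349 against 222, 238 and 259 (-0.50, SE 0.12; adjusted p = 0.0398, edgeR). No gene of this list was called without WT 1, WT 2, WT 3 or Txnip-KO 3, while its median stayed between -0.29 and -0.39 over the 6 left-out samples. Without the first set, 35 genes fell, beside 5.09% of all genes tested there. In members with at least 2 Mpo UMIs, also chosen after seeing the data, 54 of 72 fell, beside 875 of all 8683 genes. In members with at most 1 Mpo UMI 0 of 72 were called, with a median of -0.26. In members without a Mki67 or Top2a UMI 0 of 72 were called, also with a median of -0.26. These last 2 fits called 154 of 7520 and 104 of 6229 genes. Of 13 genes encoded in the mitochondrion itself, mt-Co1, a subunit of complex IV, rose from 4279, 3788 and 3914 to 6166, 6402 and 5804 CPM (0.62, SE 0.08; adjusted p = 0.00614, edgeR), and no other was called.

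Glucose and fatty acid genes moved in both directions, where 2.84% of all genes tested rose and 1.46% fell. Of 26 genes of glucose uptake and glycolysis, 3 rose and 0 fell, with a median of 0.01. They were Pdk1, which keeps pyruvate out of the mitochondrion (25.7, 24.6 and 22.9 against 45.1, 54.1 and 44.3 CPM), Pfkfb3, which speeds glycolysis (8.15, 8.65 and 9.88 against 19.0, 22.0 and 16.0), and Eno1, an enolase (94.3, 74.4 and 80.4 against 157, 135 and 108). None of the 3 was called without WT 1, WT 2 or WT 3, where the list had 0 calls. Slc2a1, the glucose transporter GLUT1, stood at 6.90, 7.34 and 11.3 against 4.93, 4.71 and 2.18 CPM (adjusted p = 0.133, edgeR). Of 21 genes of fatty acid and ketone use, Acot1, Cpt1a and Acot2 rose and Oxct1 and Acat1 fell, with a median of -0.15. Cpt1a, which brings fatty acids into the mitochondrion, stood at 30.4, 24.1 and 38.5 against 82.4, 46.3 and 66.1 CPM (1.08, SE 0.23; adjusted p = 0.0316, edgeR).

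**Figure D4:**
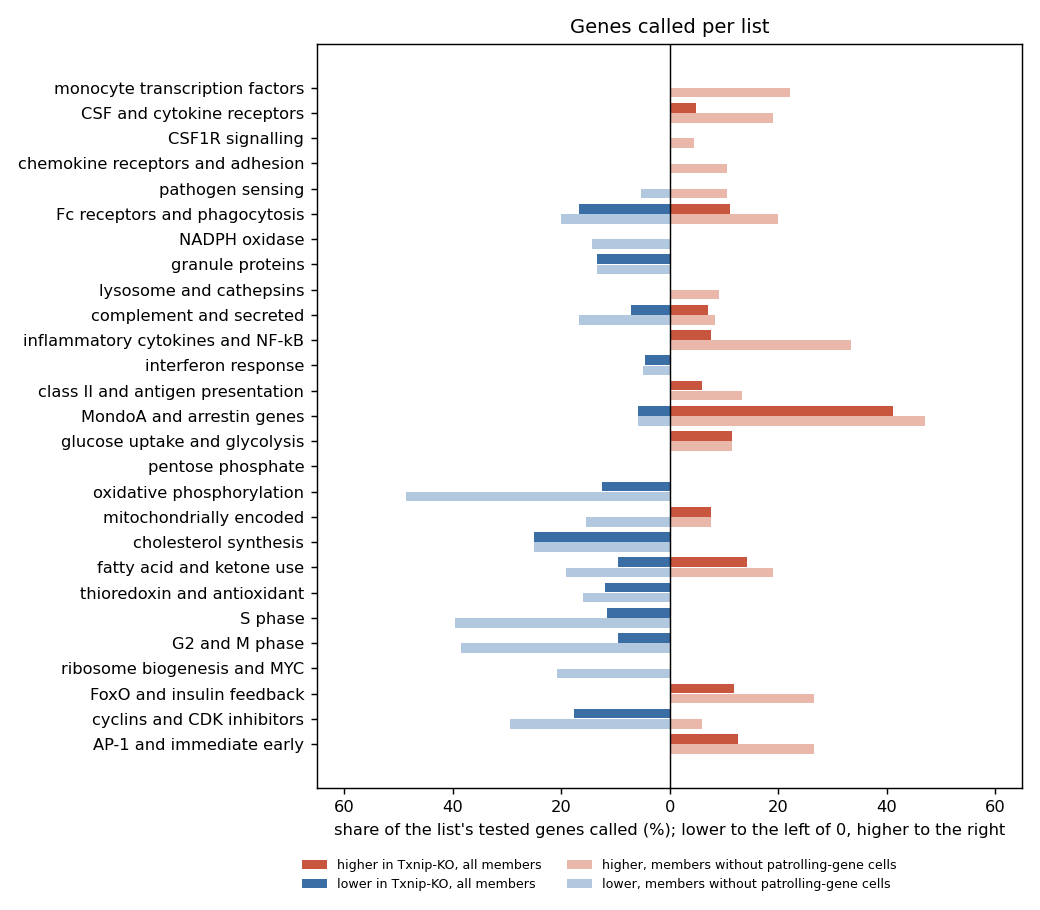
Share of each gene list's tested genes that were called (x axis, percent, lower in Txnip-KO to the left of 0 and higher to the right) for 27 lists (y axis). Dark bars are all members and pale bars members without the cells that hold at least 2 UMIs of Ace, Ear2, Treml4 and Adgre4, labelled patrolling-gene cells. MondoA and arrestin genes reach furthest to the right, and oxidative phosphorylation to the left in the pale bars.

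Calls among genes of the dividing cell all went down, beside the smaller share of members with a Mki67 UMI. Of 43 S phase genes, 5 fell and 0 rose, 40 had a negative log2 fold change and the median was -0.48. Of 52 genes of G2 and M phase, 5 fell and 0 rose, 48 had a negative log2 fold change and the median was -0.56. Among all genes tested, 1.46% fell. Rrm2, a subunit of ribonucleotide reductase, stood at 72.7, 90.4 and 93.8 CPM against 23.9, 37.7 and 45.8 (-1.26, SE 0.21; adjusted p = 0.0168, edgeR), and Birc5 (survivin) at 182, 219 and 197 against 47.9, 98.8 and 131 (-1.11, SE 0.27; adjusted p = 0.0448, edgeR). Txnip-KO 1 was the lowest sample for both. These lists had 0 calls without WT 2 or WT 3 and 1 each without WT 1. Without Txnip-KO 1 or Txnip-KO 2, S phase had 10 and 12 falls. Without the first set of cells, 17 and 20 genes fell, beside 5.09% of all genes tested there. In members with at most 1 Mpo UMI, 9 of 42 S phase and 0 of 50 G2 and M phase genes fell, with medians of -1.02 and -0.66. In that fit 69 of all 7520 genes fell. In members without a Mki67 or Top2a UMI, which are picked for lacking such genes, 0 of 27 and 0 of 17 fell. Among 17 cyclins and cyclin-dependent kinase inhibitors, Ccne1, Ccna2 and Cdkn2d fell, with none called without any 1 of the WT samples.

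Thioredoxin, which Txnip's product binds, was in a list of thioredoxin and other antioxidant genes. Of its 25 genes tested, 3 fell and 0 rose, with a median of -0.13, beside falls in 1.46% of all genes tested. Txn1, thioredoxin itself, stood at 627, 576 and 665 CPM in WT and at 399, 456 and 488 in Txnip-KO (-0.48, SE 0.12; adjusted p = 0.0481, edgeR). Prdx4, a peroxiredoxin, stood at 117, 108 and 136 against 64.1, 66.7 and 69.0 CPM (-0.85, SE 0.14; adjusted p = 0.0158, edgeR), and Gpx1, a glutathione peroxidase, at 2027, 1829 and 1756 against 1408, 1211 and 1307 (-0.52, SE 0.10; adjusted p = 0.0242, edgeR). All 3 were lower in every Txnip-KO sample, and none was called without any 1 of the WT samples.

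Of 22 monocyte transcription factors tested, 0 passed (8 had an unadjusted p under 0.05, and the DESeq2 Wald test called 3). Without the first set, 4 of 18 rose (Zeb2, Id2, Pou2f2 and Runx2), beside 6.54% of all genes tested there. In members with at least 2 Mpo UMIs, also an alternative chosen after seeing the data, 4 of 16 rose (Zeb2, Pou2f2, Runx1 and Runx2) and 2 fell (Cebpb and Klf4). In that fit 872 of all 8683 genes tested rose and 875 fell, so a few calls in a list are common there. Irf8 stood at 603, 614 and 538 CPM against 609, 642 and 696, and Klf4, a factor of classical monocytes, at 178, 134 and 113 against 182, 76.9 and 113, and both overlapped. Nr4a1 stood at 41.7, 12.6 and 14.8 against 7.75, 5.49 and 5.09 CPM without overlap (-1.89, SE 0.54; adjusted p = 0.0705, edgeR). Of 22 genes of CSF1R signalling and of 20 chemokine receptors and adhesion genes, 0 passed by edgeR (6 and 5 had an unadjusted p under 0.05, and DESeq2 called 0 and 2). Without the first set, 1 of 22 and 2 of 19 rose, beside the same 6.54%. In members with at least 2 Mpo UMIs, 3 of 21 CSF1R signalling genes rose and 4 fell. Of 18 chemokine receptor and adhesion genes, 5 rose and 4 fell there, beside the 872 rises and 875 falls among 8683 genes. Genes of the rule, as a description, stood at 244, 169 and 200 against 197, 156 and 168 CPM for Csf1r and at 379, 337 and 334 against 829, 219 and 386 for Ccr2, so the members of the samples differed in Ccr2 mainly through Txnip-KO 1.

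Among effector genes, 2 of 15 granule proteins, 5 of 18 Fc receptor and phagocytosis genes and 2 of 14 complement and secreted proteins were called, beside 4.31% of all genes tested. Of the granule proteins, Elane fell from 207, 279 and 275 to 61.3, 160 and 95.9 CPM (-1.27, SE 0.27; adjusted p = 0.0318, edgeR) and Serpinb1a, an inhibitor of such proteases, from 192, 242 and 223 to 131, 159 and 111, while Mpo overlapped at 1604, 1763 and 1647 against 732, 1799 and 1323. Of the Fc receptor and phagocytosis genes, Mrc1 and Cd93 rose and Trem2, Cd36 and Treml4 fell. Trem2, a lipid-sensing receptor, stood at 33.8, 24.9 and 33.9 against 6.34, 8.63 and 16.7 CPM (-1.54, SE 0.30; adjusted p = 0.0254, edgeR), and fell without the first set (-1.71, adjusted p = 0.00669, edgeR). Its call was lost without WT 1, WT 2 or WT 3, with an adjusted p of up to 0.12 in edgeR. The granule list had 0 calls without any 1 of the WT samples or Txnip-KO 3, and the Fc receptor list 0 without WT 3. Single genes were called among 13 inflammatory cytokine and NF-kB genes (Icam1, an adhesion ligand, up), 22 interferon response genes (Zbp1, a sensor of nucleic acid, down), 17 antigen presentation genes (H2-Ob, a class II editor, up) and 14 complement and secreted proteins (F5, a clotting factor, up, and Lgals1, a galectin, down). The antigen presentation list holds H2-Ab1, which the rule limits, so its count is partly set by the selection. Without the first set, 2 of 15 genes of that list rose and 0 fell, beside rises in 6.54% of all genes tested there. They were H2-Ob and Cd74, the latter at 1.26 (adjusted p = 0.00426, edgeR). With each sample left out in turn, H2-Ob and Lgals1 passed in 4 of 6 fits, Zbp1 in 2, and Icam1 and F5 in 1.

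Other lists had no call by edgeR. Among 19 pathogen sensing genes, 7 NADPH oxidase genes, 22 lysosomal genes, 8 pentose phosphate genes and 29 genes of ribosome biogenesis and MYC, 3, 4, 4, 1 and 9 had an unadjusted p under 0.05 and DESeq2 called 1, 0, 0, 0 and 1. Of 17 FoxO and insulin feedback genes, Tsc22d3, a glucocorticoid-induced leucine zipper protein (37.9, 35.9 and 69.5 against 183, 130 and 89.4 CPM), and Rictor, of the mTORC2 complex (32.9, 38.5 and 33.9 against 82.4, 54.1 and 58.1), rose. Of 16 AP-1 and immediate early genes, Zfp36l2, an RNA-decay factor (368, 370 and 388 against 666, 557 and 556 CPM), and Jund (41.4, 25.9 and 34.6 against 65.5, 50.2 and 82.8) rose. Of these 4, Tsc22d3 passed in 4 of the 6 fits that leave out a sample, Zfp36l2 in 3, and Rictor and Jund in 2. Rises made up 2.84% of all genes tested.

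Some marker lists of other cells moved with the genotype inside the members. The 8 stem and multipotent progenitor genes summed to 387 to 465 CPM in WT and 639 to 724 in Txnip-KO, with Flt3 and Hlf among them. The 10 conventional dendritic genes summed to 163 to 188 against 280 to 427, with Xcr1 at 0 and Flt3 and Cd209a giving most of the sum. The 6 basophil or mast cell genes summed to 137 to 322 against 32.7 to 95.8. None of these 3 ranges overlapped between the groups, and their part in the gene results was not tested. Neutrophil genes summed to 25.0 to 40.8 CPM in WT and 12.6 to 176 in Txnip-KO, with Txnip-KO 1 the highest.

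Whether the genotype effect in the members differs from that elsewhere in the marrow was asked with the interaction of class and genotype. Against all other cells, the genotype effect differed in 91 of 14010 genes (0.65%). Against the class with more class II it differed in 23 of 8493 (0.271%), and against Mpo-high progenitors (at least 10 Mpo UMIs and at most 1 of Csf1r; 3777 cells) in 0 of 11346 (0%), where 953 had an unadjusted p under 0.05 and no other tool was run. The counts turn on single samples. The first was 328 without Txnip-KO 1 and 140 without WT 2, the second lay between 8 (without Txnip-KO 3) and 41 (without Txnip-KO 2) and was 10 without WT 1 or WT 2, and the last was 18 without Txnip-KO 1 and 0 or 1 otherwise. The interaction test has limited sensitivity at these depths, so few calls do not show that effects are alike.

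Lpl, lipoprotein lipase, showed opposite signs in the members and outside. It stood at 31.2 CPM in WT members (303 UMIs in all) on 50 UMIs in Txnip-KO members, and at 1.93 and 11.5 CPM in the other cells, where it rose (2.46, SE 0.32; adjusted p = 0.00161, edgeR), and the interaction was -3.88 (SE 0.63; adjusted p = 0.00362, edgeR). Its difference within the members did not pass on its own (-1.36; adjusted p = 0.229, edgeR), with samples at 32.3, 21.8 and 41.3 against 31.0, 4.71 and 0 CPM. Fabp4 and Fcgr4, genes of the first set, had interactions of -4.08 (SE 0.48; adjusted p = 0.000169, edgeR) and -2.84 (SE 0.54; adjusted p = 0.0134, edgeR). Cd300c, a receptor of the CD300 family, rose in members from 5.53 to 14.8 CPM and fell in the other cells from 17.0 to 9.71, an interaction of 2.27 (SE 0.33; adjusted p = 0.0012, edgeR). Its rise within the members was not called with any 1 sample left out. Cd209d was at 6.54 and 23.5 CPM in members and at 11.6 and 11.2 in other cells (1.94, SE 0.29; adjusted p = 0.00185, edgeR).

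**Figure D5:**
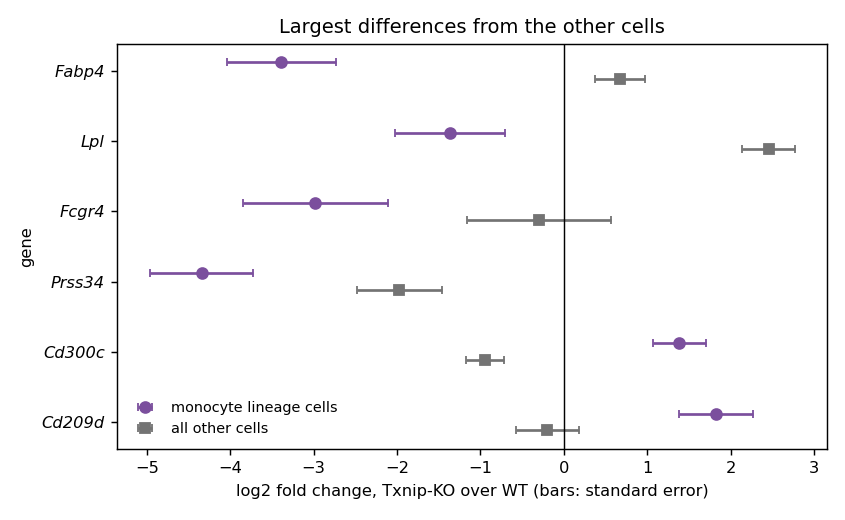
Log2 fold change of Txnip-KO over WT (x axis, bars are standard errors) in the members and in all other cells, for the 6 genes with the largest called interaction (y axis). Fabp4 and Lpl lie below 0 in the members and above 0 in the other cells, and Cd300c the reverse.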

How the data were processed

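The deposited values of the 6 marrow samples are raw UMI counts by gene and barcode. Per the submitters' processing notes the authors used Cell Ranger 6.1.1, CASAVA 1.8 and Seurat 2.3.4. The libraries are 10x Genomics 3' version 3.1 per the labels' protocols. The genome build was not given in the sources used here. Counts were summed per sample over the members (1273140 to 3873932 UMIs) and tested with edgeR 4.0.16 in R 4.3.3 (filterByExpr, TMM scaling, quasi-likelihood test, Benjamini-Hochberg over all genes, threshold 0.05). The interaction fits had the sample as a block. Shares were compared with exact permutation tests in Python 3.11.15, on cells thinned to 3000 UMIs for markers. Doublets, scored with Scrublet in scanpy 1.11.5 (highest 0.8% per 1000 barcodes), were kept, and 12 to 28 members a sample were so marked. Gene positions are from GENCODE on GRCm38 and sequences from RefSeq on GRCm38.p6. The scripts were tested on simulated data. There the interaction test recovered fewer planted changes than the pass mark first set, which was then lowered, and fewer than the test within members. Members, lists and rules were chosen with earlier results of these data known. Genes named are Txnip, the rule's genes, markers, the 12 largest rises and falls as described, up to 4 per list by p and the 6 largest interactions. Other genes named, such as further calls of a list, Arrdc3 and Slc2a1, were chosen after their values were seen. Alternatives tried were other tools and filters, the replicate number as a block, each sample left out, and other limits on cells.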

Additional observations from a re-analysis of the deposited data

Results flagged for a closer look

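For 6 genes the genotype effect in the monocyte lineage cells differed from that in all other cells, by the edgeR interaction test and with the largest differences among called genes of at least 10 CPM. The differences in log2 fold change were -4.08 for Fabp4, -3.88 for Lpl, -2.84 for Fcgr4 and -2.43 for Prss34 (adjusted p = 0.0308, edgeR), and 2.27 for Cd300c and 1.94 for Cd209d. Prss34 stood at 74.96 CPM in WT and 3.59 in Txnip-KO members and at 609.9 and 173 in the other cells.

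Against the monocyte lineage cells with more class II, the 6 largest were Car1 at -4.85, Prss34 at -4.06, Cpa3 at -3.32, Cd209d at 1.88, Mrc1 at 1.83 and Klrd1 at 1.83, with adjusted p from 3.11e-05 to 0.0331 in edgeR. Several rest on few molecules. Car1, an erythroid carbonic anhydrase, had 21 UMIs in WT and 271 in Txnip-KO among the cells with more class II, against 305 and 60 among the members. Prss34 had 12 and 10 UMIs there and Cpa3, a mast cell protease, 4 and 26. Cd209d stood at 107 and 109.6 CPM in the cells with more class II and at 6.54 and 23.5 in the members, and Mrc1 at 54.4 and 75.7 against 3.84 and 19.0.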

How the results depend on the processing

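The number of genes called in the members (412, of which 272 higher and 140 lower) moved by more than 1.5 times under many settings. It was 1066 (491 and 575) with no filter on low counts, 226 (150 and 76) without marked doublets, 58 (34 and 24) with each cell thinned and 47 (34 and 13) with a stricter cell filter. It was 62 (26 and 36) with at least 4 Csf1r UMIs, 184 (125 and 59) with no class II UMI, 104 (53 and 51) in cells without Mki67 or Top2a, and 154 (85 and 69) with at most 1 Mpo UMI. Chosen after seeing the data, cells with more Mpo gave 1747 (872 and 875) and leaving out patrolling-gene cells 1088 (612 and 476). Fewer cells enter most of these fits, and which cells matter was not tested. With 1 sample left out in turn, calls ran from 24 to 629, rises from 14 to 332 and falls from 10 to 297, and the interactions from 63 to 328, 8 to 41 and 0 to 18. The replicate number as a block gave 883 calls (473 and 410). Deviations of same-numbered samples correlated at 0.234, 0.241 and 0.0137, and WT 1 and 2 but not WT 3 correlated best with their own number, so the numbers are not read as pairs. The difference in the share of members was -0.493 percentage points on thinned cells and -0.578 with at least 4 Csf1r UMIs, against -1.85. As deposited, Kit and Flt3 differed by 14.9 and 41.0 points in detection, against 7.02 and 29.6 thinned. Of 1353 values for 72 named genes under these settings, 921 stayed on the same side of the threshold, 409 lost it, 19 gained it and 4 changed sign. Those 4 were Eno3 (0.14) and Gngt2 (0.34) without patrolling-gene cells, Cdkn2d (0.029) at 4 Csf1r UMIs and Car1 (1.38) at low Mpo, and the cause was not tested.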
